A study of Homo sapiens with 3 samples.

Results

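The DNA replication genes described here are 39 genes that license replication origins, unwind and copy the template, join the nascent strands and supply deoxynucleotides. They were listed by symbol and matched to the Ensembl identifiers of the deposited table, and all 39 were found among its 60504 identifiers. The choice used none of the measured values of these cells, but it was made with earlier results of the data known. The table holds FPKM, fragments scaled to the length of the gene and the size of the library, so levels of different genes are compared per length. RNA-Seq was performed on DLD1 cells, an established line from a human colorectal cancer. There were 3 libraries: 1 from wild type DLD1 cells, here DLD1 control cells, and 2 from DLD1 cells with BEX2 knocked out by CRISPR/Cas9, here KO1 and KO2 after the labels, or the BEX2-/- libraries. The edit, read by sequencing, was a short deletion in the translation initiation region, and no drug or other treatment is named for any library. Whether the control cells had also passed through editing is not given in the sources used here. The comparison is of libraries with and without the edit of BEX2, an X-linked gene of the brain-expressed family. An effect of the edit cannot be told apart here from other differences between the cultures. Whether KO1 and KO2 are separate clones or samples of 1 edited line is not given in the sources used here, so the SD between them may be technical, and the control has no replicate library.

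Replication is prepared in G1, when the origin recognition complex, CDC6 and CDT1 load the ring of MCM2 to MCM7 onto origins. CDC45 and the GINS complex then join the ring to form the active helicase, primase and polymerase alpha start each strand, and RFC loads the PCNA clamp for the main polymerases. Many of these genes are transcribed at the G1/S boundary by E2F factors, so their summed mRNA is widely used as a measure of proliferating cells. In bulk RNA, fewer cells in S phase and less mRNA per cell cannot be told apart.

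Reads were recovered from FPKM and exon length, which gave depths of 35593989 to 47722374 reads per library and whole reads for 36 of the 39 genes. BEX2 itself was listed at 0 in each of the 3 libraries, the control included, so its mRNA gave no check of the labels. A count of 0 allows up to 3 reads, here 0.0538 FPKM in the control. At the protein level, the paper reports relatively high BEX2 in DLD1 among colorectal cancer lines and a western blot of the knockout. All 7 epithelial markers reached 1 FPKM in at least 1 library, although VIL1 was at 3.61, 13.2 and 0.221 FPKM in DLD1 control cells, KO1 and KO2. None of 6 fibroblast, 6 leukocyte and 4 endothelial markers reached 1 FPKM. Mitochondrial genes held between 21.9% and 24.3% of the FPKM sum. With 1 control library, a permutation of 1 library against 2 has 3 arrangements and cannot give an exact p under 0.333, so the comparisons below are descriptions. Intervals in parentheses are exact 95% intervals of the ratio of reads of a pair of libraries. They cover counting error only and say nothing of the spread between cultures.

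The promoters show what many of these genes have in common apart from function. RefSeq promoter windows, from 250 bases before to 50 bases after the start of a gene, were matched for 32 of the 39 genes (GRCh38.p14). The words TTTCCCGC, TTTGGCGC, TTTCGCGC and TTTGCCGC, common forms of an E2F site, were searched on both strands, and matches that overlapped were each recorded. A match was found for 17 of the 32 genes (53.1%), against 3.99% of all 27305 genes with a window and 7% of 8287 genes that passed the filter on expression. Of the lists described below, 37.8% of other replication genes and 40% of E2F and pocket protein genes with a window also held a match. A match is a description of the letters and not evidence of binding. The stretches below are shown because they carry the words upstream of the start in genes whose values are described later. They are written 5′ to 3′ on the strand of the gene, with the words in capitals.
MCM6 (chr2:135876511-135876606, minus strand): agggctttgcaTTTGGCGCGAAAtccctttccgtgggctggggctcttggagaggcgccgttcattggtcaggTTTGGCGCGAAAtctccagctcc
MCM3 (chr6:52284898-52284927, minus strand): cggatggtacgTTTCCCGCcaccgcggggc
POLA1 (chrX:24693770-24693799, plus strand): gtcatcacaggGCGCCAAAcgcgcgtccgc
CDT1 (chr16:88803743-88803772, plus strand): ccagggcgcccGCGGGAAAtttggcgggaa
GINS2 (chr16:85688967-85688996, minus strand): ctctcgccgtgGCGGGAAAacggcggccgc
PCNA (chr20:5126663-5126692, minus strand): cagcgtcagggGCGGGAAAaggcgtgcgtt
TYMS (chr18:657603-657632, plus strand): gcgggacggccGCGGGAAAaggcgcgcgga
E2F1 (chr20:33686387-33686429, minus strand): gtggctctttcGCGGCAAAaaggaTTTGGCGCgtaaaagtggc

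Positions are counted from the RefSeq start. GENCODE 29 places none of the MCM6, MCM3, PCNA and POLA1 stretches in an exon, whereas those of CDT1, GINS2, TYMS and E2F1 lie wholly or partly in an annotated exon. The gene and transcript of those exons were not recorded. In MCM6 a word overlapped another in the reverse orientation at 2 places, which began at -152 and -90. E2F1 itself held words at -33 and -20, in opposite orientations. PCNA (-59), TYMS (-39), CDT1 (-35) and GINS2 (-31) each held a single word in the reverse orientation, close to the start. The CCAAT box, bound by NF-Y, was present for 19 of the 32 genes (59.4%), against 43.4% of genes that passed the filter. It was as common in other replication genes (59.5%) and more common in mitosis genes (88%). The CHR element, searched as TTTGAA and typical of genes of mitosis, was found in 1 of the 32, RRM1, and in 13.2% of genes that passed the filter.

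**Figure D1:**
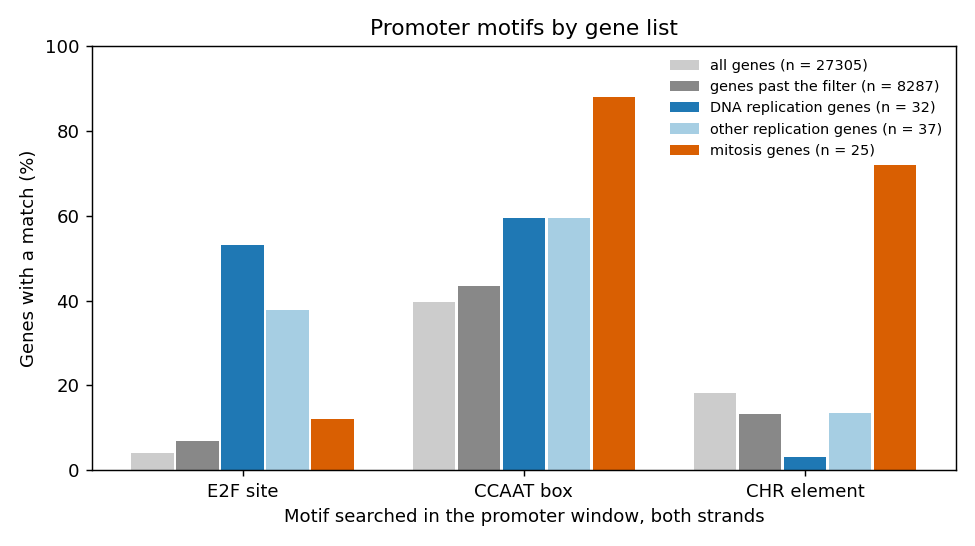
Share of genes with a motif in the RefSeq promoter window, in percent, for all genes with a window, genes that passed the filter on expression, the DNA replication genes, other replication genes and mitosis genes. The E2F site was present in 53.1% of the DNA replication genes and the CHR element in 3.12%, whereas mitosis genes showed 12.0% and 72.0%.

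Of the 39 genes, 34 had a lower FPKM in both knockouts than in DLD1 control cells, 2 (GINS4 and CCNE2) were higher in both, and 3 (MCM10, RFC3 and POLA1) were lower in 1 knockout and higher in the other. Over the 11675 genes with a mean of 1 FPKM or more, 27.7% were lower in both knockouts and 32.4% higher in both. All 39 genes passed this filter, so none was left out. Relative to the control, the 39 genes had a median log2 ratio of FPKM + 1 of -0.17 in KO1 and -0.32 in KO2, while the median of all genes was 0.04 and -0.01. The knockouts share the control library, so their ratios are not independent of each other. Summed over the 39 genes, the level was 1378 FPKM in the control library, 1178 in KO1 and 1063 in KO2. KO2 gave the lowest value of the 3 libraries for 28 genes, KO1 for 9 and DLD1 control cells for 2. The share of all genes lowest in KO2 was not computed, but KO2 was below KO1 for 57.8% of all genes.

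The differences were small. Past a threshold of 0.32 in log2 of FPKM + 1, 9 of 39 genes were lower in KO1 against 9.17% of all genes, and none was higher against 12.1%. In KO2, 19 of 39 were lower against 13.7% of all genes, and none was higher against 13.5%. In both knockouts 3 genes were lower (7.69%), namely MCM2, CDC45 and GINS2, against 2.60% of all genes, and none was higher, against 2.96%. At 1.5-fold on this scale, 1 gene, TYMS, was lower in KO2 (2.56% against 3.56% of all genes). The added 1 FPKM narrows the ratios, so these counts depend on it. By plain FPKM, GINS2 (0.652), POLE2 (0.653) and E2F1 (0.653) were also past 1.5-fold in KO2. In KO1 the plain ratios of CCNE2 (1.34, higher) and of CDT1 (0.797) and GINS3 (0.790, both lower) were past 0.32 in log2. The counting interval of the ratio lay below 1 for 26 of 36 genes in KO1 (26.7% of 10514 genes with whole reads), for 32 in KO2 (36.3%) and for 24 in both knockouts (14.2%). It lay above 1 in both knockouts for none of the 36, against 17.4%.

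A fit across all genes with limma, in which the lone control library is assumed to vary like the knockouts, called no gene at an adjusted p under 0.05. The lowest adjusted p by limma was 0.9999, for the 39 genes as for all genes, and none of the 39 passed an unadjusted p under 0.05. Over all genes, 67 were lower (0.574%) and 72 higher at that unadjusted level. GINS2, the lowest of the 39 over the knockouts, had a log2 difference of -0.52 with an SE of 0.18.

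**Figure D2:**
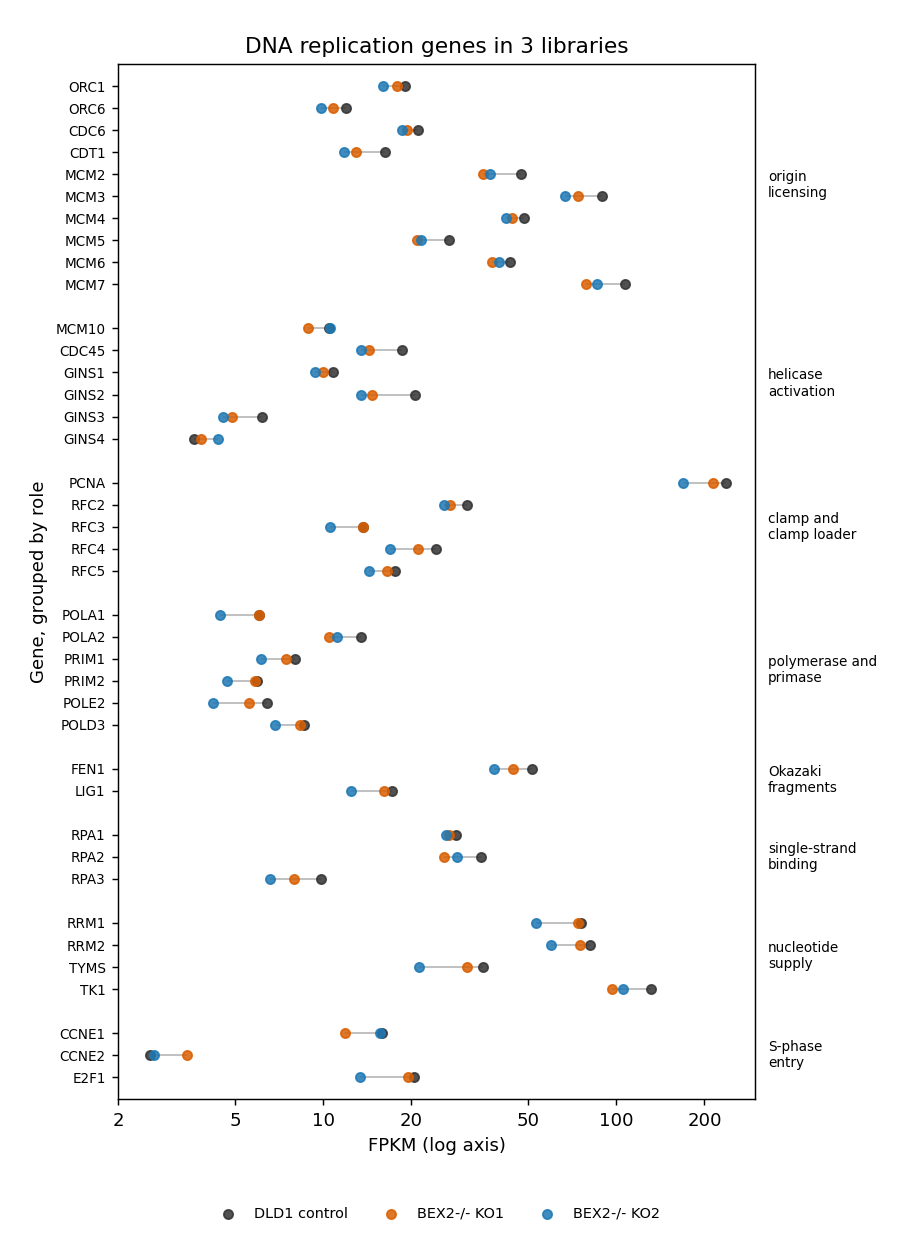
FPKM of the 39 DNA replication genes on a log axis, 1 point per library, grouped by role. DLD1 control cells were highest for 34 genes, against 27.7% of all genes, and KO2 was lowest for 28. The share of all genes lowest in KO2 was not computed. PCNA was the most abundant in every library and CCNE2 the least.

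Levels per length spanned from 2.57 FPKM for CCNE2 to 238 for PCNA in DLD1 control cells. PCNA, TK1 and MCM7 were, in that order, the most abundant in every library, and CCNE2 was the least. They encode the sliding clamp, the salvage enzyme thymidine kinase and a subunit of the MCM ring. Primase, POLA1, POLE2, GINS3 and GINS4 each stood under 10 FPKM in all libraries.

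All 10 genes of origin licensing were lower in both knockouts, by medians of -0.23 (log2) for KO1 and -0.28 for KO2. MCM7 (ENSG00000166508, chromosome 7, 100092728 to 100101940, minus strand, GRCh38) was at 107 FPKM in the control, 79.1 in KO1 and 85.8 in KO2. Both knockouts were below the control, with ratios of 0.741 (0.725 to 0.758) and 0.803 (0.788 to 0.819). MCM2, which is a target of the CDC7 kinase, was at 47.5 FPKM in the control, 35.0 in KO1 and 37.0 in KO2, and the mean of the knockouts was 36.0 ± 1.40 FPKM (SD, n = 2). Its ratios were 0.737 (0.714 to 0.760) in KO1 and 0.779 (0.757 to 0.801) in KO2. An antisense gene, AC023593.1, covers 22.7% of its exon bases. MCM3 was at 89.7 FPKM in the control, 74.0 in KO1 and 66.8 in KO2, and here KO2 was the lower, at a ratio of 0.745 (0.728 to 0.764) against 0.825 (0.804 to 0.847) in KO1. MCM5 was at 26.9 FPKM in the control, 21.0 in KO1 and 21.5 in KO2, with knockouts that lay close together at 21.3 ± 0.420 FPKM (SD, n = 2). MCM6, whose promoter holds the overlapping words above, was closer to the control, at 43.4, 37.8 and 39.7 FPKM in the same order of libraries, with ratios of 0.871 (0.842 to 0.902) and 0.914 (0.887 to 0.943). Reads of MCM4 were not recovered, and it was at 48.6, 44.1 and 42.0 FPKM.

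The ring contains 1 copy of each of the 6 subunits, but their mRNA levels per length differed. MCM7 and MCM3 were the highest, MCM4 followed, and MCM5 was the lowest in all 3 libraries. This order depends on the length used, which merges the exons of all transcripts of a gene. That length was 7338 bases for MCM5 and 4118 for MCM6, and MCM5 had more reads than MCM6 in the control (9359 against 8480). The order is therefore not a measure of the number of mRNA molecules per subunit. MCM2 was above MCM6 in DLD1 control cells and below it in both knockouts, the only change of order in the ring. Between the knockouts, the intervals lay above 1 for MCM2, MCM6 and MCM7 and below 1 for MCM3, at ratios of KO2 to KO1 of 1.06 (1.023 to 1.09), 1.05 (1.01 to 1.09), 1.08 (1.06 to 1.11) and 0.903 (0.879 to 0.928).

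Among the loaders of the ring, CDT1 stood furthest from the control. CDT1, the factor that brings MCM to the origin and is destroyed in S phase, was at 16.3 FPKM in the control, 13.0 in KO1 and 11.7 in KO2. Its ratios of 0.797 (0.748 to 0.849) and 0.722 (0.680 to 0.767) were below those of ORC1, ORC6 and CDC6. CDC6, the ATPase that works beside CDT1, was at 21.1, 19.4 and 18.6 FPKM. ORC1, the largest subunit of the origin recognition complex, was at 19.0, 17.9 and 15.98 FPKM, and its interval in KO1 reached 1 (0.944 (0.892 to 1.00)). ORC6, the smallest subunit, was at 12.0, 10.8 and 9.80 FPKM, with ratios of 0.906 (0.8504 to 0.964) and 0.819 (0.772 to 0.869).

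The genes of helicase activation included both the lowest of the 39 over the knockouts, GINS2, and a gene in the opposite direction, GINS4. GINS2 (ENSG00000131153, chromosome 16, 85676198 to 85690073, minus strand, GRCh38), a subunit of the tetramer that completes the active helicase, was at 20.6 FPKM in the control, 14.7 in KO1 and 13.4 in KO2. These values stood for 3192 reads in the control, 1711 in KO1 and 2093 in KO2, the KO1 library being the shallowest. The ratios were 0.715 (0.6736 to 0.758) and 0.652 (0.617 to 0.689), and the knockouts had a mean of 14.1 ± 0.912 FPKM (SD, n = 2). CDC45, which bridges the MCM ring and GINS, was at 18.6 FPKM in the control, 14.4 in KO1 and 13.5 in KO2, with ratios of 0.771 (0.722 to 0.823) and 0.725 (0.682 to 0.770). The knockouts did not differ from each other beyond counting error for CDC45, at 0.940 (0.877 to 1.01).

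The 4 GINS subunits form 1 complex, but their mRNA differed in direction. GINS3 was at 6.20, 4.89 and 4.55 FPKM, with ratios of 0.790 (0.726 to 0.859) and 0.734 (0.679 to 0.794). GINS1 was at 10.8, 10.03 and 9.37 FPKM, closer to the control at 0.929 (0.868 to 0.994) and 0.868 (0.815 to 0.925). GINS4 was instead highest in KO2, at 3.62 FPKM in the control, 3.82 in KO1 and 4.37 in KO2. Its interval included 1 in KO1, at 1.06 (0.957 to 1.16), and lay above 1 in KO2, at 1.21 (1.11 to 1.32). An antisense gene, AC009630.2, covers 21.2% of the exon bases of GINS4 and was at 0.142, 0.189 and 0.176 FPKM in the same libraries. MCM10, which is needed to fire the loaded helicase, was lower in KO1 alone, at 10.5 FPKM in the control, 8.90 in KO1 and 10.6 in KO2, with ratios of 0.851 (0.801 to 0.905) and 1.01 (0.957 to 1.07).

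The genes of the clamp and clamp loader were nearer to the control in KO1 than in KO2, with median log2 ratios of -0.15 and -0.34, and all 5 were lower in KO2 than in KO1. PCNA (ENSG00000132646, chromosome 20, 5114953 to 5126626, minus strand, GRCh38), the ring that tethers the polymerases to DNA, was at 238 FPKM in the control, 215 in KO1 and 169 in KO2. The mean of the knockouts was 192 ± 31.9 FPKM (SD, n = 2), so the spread between them was wide. Its ratio was 0.902 (0.8804 to 0.924) in KO1 and 0.712 (0.696 to 0.729) in KO2. RFC4 was in the same order, at 24.3 FPKM in the control, 21.0 in KO1 and 17.0 in KO2, and RFC3 was at the control level in KO1, with 13.6, 13.6 and 10.6 FPKM and ratios of 1.00 (0.933 to 1.07) and 0.774 (0.722 to 0.8297). RFC2 was at 31.0, 27.1 and 25.9 FPKM and RFC5 at 17.5, 16.5 and 14.3 FPKM. RFC2 to RFC5 are the small subunits of the loader that opens PCNA, and their ratios in KO2 ran from 0.697 for RFC4 to 0.836 for RFC2.

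In KO2 all 6 polymerase and primase genes were lower than in DLD1 control cells, with a median log2 ratio of -0.31, while the median in KO1 was -0.06. POLE2, an accessory subunit of polymerase epsilon, was at 6.43 FPKM in the control, 5.57 in KO1 and 4.198 in KO2, with ratios of 0.866 (0.779 to 0.962) and 0.653 (0.587 to 0.725). POLA1 (catalytic subunit of polymerase alpha) and both primase subunits PRIM1 and PRIM2 had intervals that included 1 in KO1 and lay below 1 in KO2. POLA1 was at 6.02, 6.06 and 4.44 FPKM, PRIM1 at 8.02, 7.49 and 6.16 FPKM and PRIM2 at 5.93, 5.88 and 4.70 FPKM. POLA2, the regulatory subunit of the same enzyme, showed the reverse order of knockouts, at 13.5 FPKM in the control, 10.5 in KO1 and 11.2 in KO2. Its ratio of KO2 to KO1 was 1.07 (1.01 to 1.13), against 0.733 (0.680 to 0.791) for POLA1, so that subunits of polymerase alpha differed in opposite directions between the knockouts. A gene model on the same strand, AP000944.2, covers 35.1% of the exon bases of POLA2. POLD3, a subunit of polymerase delta, was at 8.60, 8.33 and 6.87 FPKM, with 0.969 (0.908 to 1.033) in KO1 and 0.798 (0.750 to 0.8495) in KO2.

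Okazaki fragments are processed by FEN1 and LIG1. FEN1, the nuclease that trims flaps, was at 51.7 FPKM in the control, 44.4 in KO1 and 38.3 in KO2. LIG1, the ligase that seals the fragments, was at 17.1 FPKM in the control, 16.2 in KO1 and 12.4 in KO2. Both were lower in each knockout, and the ratios in KO2, 0.740 (0.712 to 0.769) and 0.724 (0.694 to 0.754), were below those in KO1, 0.858 (0.824 to 0.893) and 0.944 (0.905 to 0.984).

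The 3 subunits of RPA, which coats single-stranded DNA, were lower in both knockouts but by different amounts. RPA1, the largest subunit, was closest to the control, at 28.5, 26.8 and 26.3 FPKM, with ratios of 0.940 (0.908 to 0.974) and 0.925 (0.895 to 0.956). RPA3, the smallest, was at 9.81 FPKM in the control, 7.96 in KO1 and 6.59 in KO2, with 0.812 (0.747 to 0.882) and 0.672 (0.620 to 0.728). RPA2 was at 34.6 FPKM in the control, 25.8 in KO1 and 28.6 in KO2 and was lower in KO1 than in KO2.

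**Figure D3:**
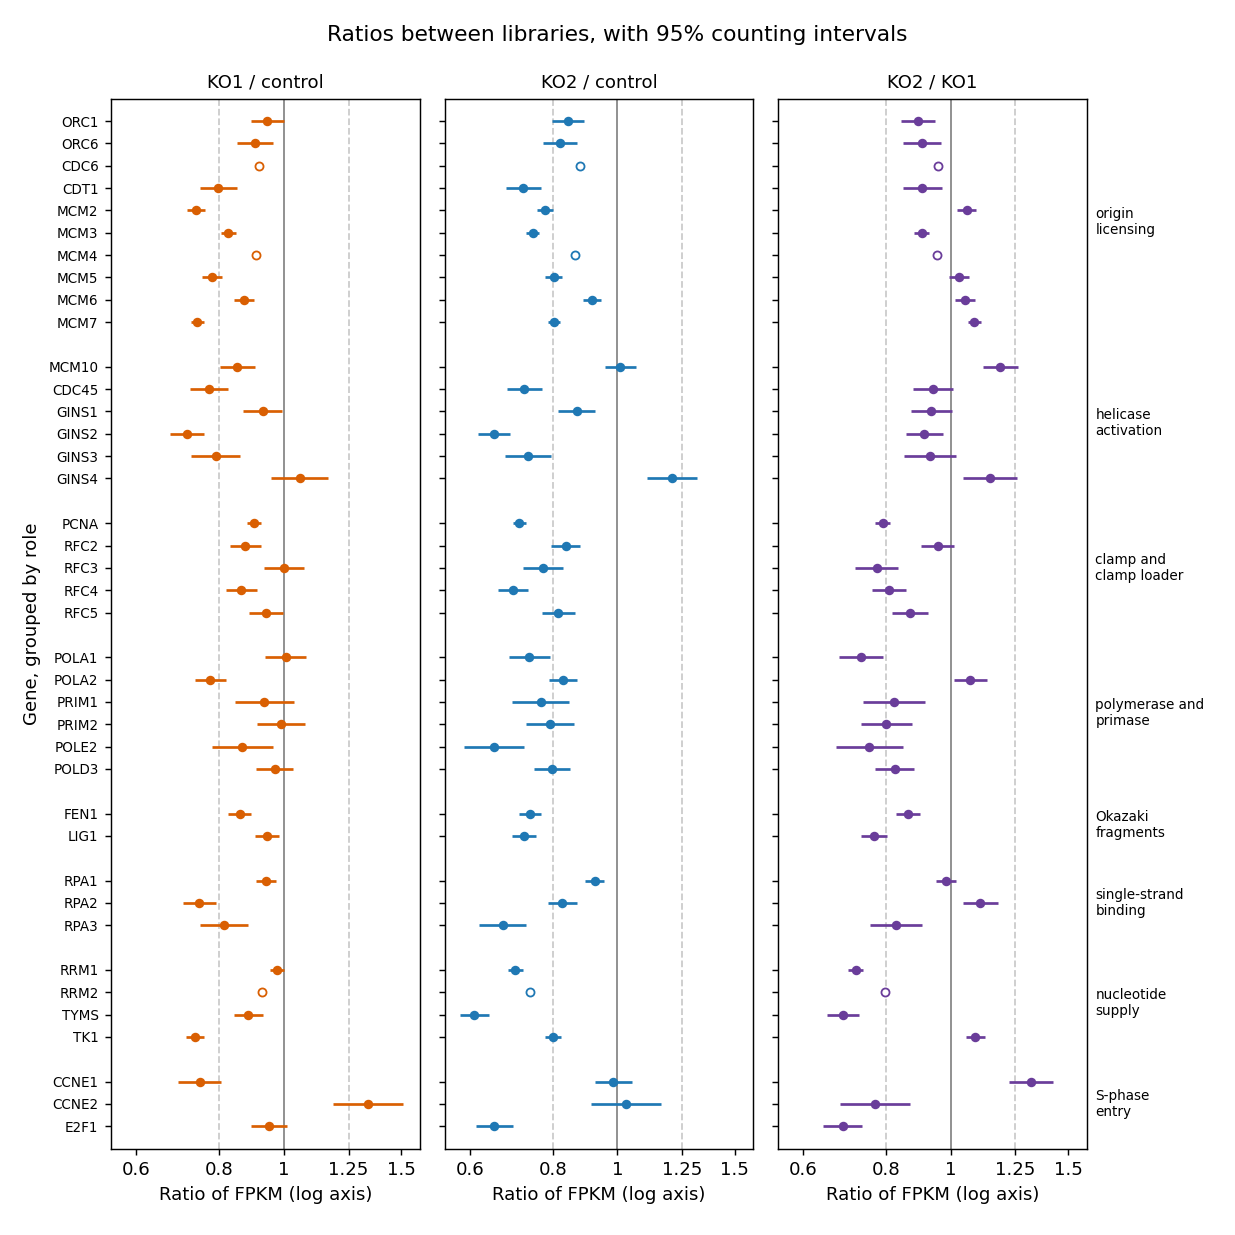
Ratio of FPKM between libraries for each gene on a log axis, with exact 95% counting intervals as bars and open points for CDC6, MCM4 and RRM2, whose reads were not recovered. Dashed lines mark a log2 ratio of 0.32 in each direction on plain FPKM. The counts in the text used FPKM + 1, so some points past a line are not among them. Most points lie left of 1 in both comparisons with the control, and the right panel shows MCM2, MCM6, MCM7, TK1 and CCNE1 above 1 but PCNA, RRM1, TYMS and E2F1 below it.

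The 4 genes of nucleotide supply were lower in both knockouts, by medians of -0.14 (log2) for KO1 and -0.46 for KO2, the lowest median of any group. TYMS (ENSG00000176890, chromosome 18, 657604 to 673578, plus strand, GRCh38), which makes thymidylate, was at 35.0 FPKM in the control, 30.9 in KO1 and 21.3 in KO2. These stood for 4103 reads in the control, 2721 in KO1 and 2513 in KO2. The ratio was 0.884 (0.842 to 0.928) in KO1 and 0.609 (0.579 to 0.640) in KO2, the lowest ratio of any of the 39 genes in either knockout, and the knockouts had a mean of 26.1 ± 6.81 FPKM (SD, n = 2). ENOSF1 lies on the opposite strand and shares 39.1% of the exon bases of TYMS, and the library kit does not mark strand, so reads of the pair cannot be told apart there. ENOSF1 was at 3.51, 4.11 and 2.51 FPKM. Ribonucleotide reductase, which makes deoxynucleotides from ribonucleotides, is formed by RRM1 and RRM2. RRM1 was at 75.6 FPKM in the control, 73.8 in KO1 and 53.1 in KO2, near the control in KO1 (0.977 (0.953 to 1.00)) and lower in KO2 (0.703 (0.685 to 0.720)). RRM2 was at 81.2, 75.3 and 60.1 FPKM, in the same order, although its reads were not recovered and a gene model on the same strand, AC007240.1, covers 20.2% of its exon bases. TK1, which salvages thymidine, showed the other order, at 132 FPKM in the control, 96.8 in KO1 and 105 in KO2, with ratios of 0.736 (0.713 to 0.758) and 0.801 (0.779 to 0.823).

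The regulators of S-phase entry did not share a direction. E2F1 (ENSG00000101412, chromosome 20, 33675683 to 33686404, minus strand, GRCh38), the transcription factor that drives many of the genes above, was at 20.4 FPKM in the control, 19.4 in KO1 and 13.4 in KO2. Its interval in KO1 included 1, at 0.9500 (0.893 to 1.01), and in KO2 the ratio was 0.653 (0.613 to 0.696). CCNE1, a cyclin that activates CDK2 at the start of S phase, was at 15.8 FPKM in the control, 11.8 in KO1 and 15.6 in KO2, lower in KO1 (0.747 (0.692 to 0.805)) and at the control level in KO2 (0.986 (0.925 to 1.05)). CCNE2, its paralog, was at 2.57 FPKM in the control, 3.44 in KO1 and 2.64 in KO2, higher in KO1 (1.34 (1.19 to 1.51)) and with an interval that included 1 in KO2 (1.030 (0.913 to 1.16)). The cyclin E genes therefore differed from the control in KO1 in opposite directions. INTS8 lies opposite CCNE2, shares 37.1% of its exon bases, and was at 4.73, 5.99 and 5.59 FPKM, and its part in the value of CCNE2 was not tested.

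KO2 was lower than KO1 for 29 of the 39 genes, against 57.8% of all genes, with a median difference between the knockouts of -0.13 in log2, against -0.05 over all genes. With median-ratio scaling this median was -0.07. Past the same threshold, 8 genes were lower in KO2 (20.5% against 17.9% of all genes) and 1 was higher (2.56% against 13.3%). The 8 were PCNA, RFC3, POLA1, POLE2, LIG1, RRM1, TYMS and E2F1, and the higher gene was CCNE1. The interval lay below 1 for 21 of 36 genes (58.3% against 41.8% of all) and above 1 for 9 (25.0% against 27.9% of all). The 9 genes with intervals above 1 were MCM2, MCM6, MCM7, MCM10, GINS4, POLA2, RPA2, TK1 and CCNE1.

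The genes with an E2F word in the promoter window stood at a median of -0.18 (log2) in KO1 and -0.38 in KO2 (17 genes), and those with a window but no word had -0.13 and -0.28 (15 genes). The split was made after the values were seen and is a description. GINS2, TYMS and E2F1, with the words printed above, were among the lowest in KO2. MCM6 (-0.13) and CDC6 (-0.18), also with words, were nearer the control there. CDC45, RFC4 and RRM1 were also low in KO2 and had no such word in their windows.

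The medians of all genes of a chromosome that applied to the 39 genes lay between -0.06 and 0.09 in log2. With the median of the same chromosome removed, 35 of the 39 genes were lower in both knockouts, against 30.5% of all genes, and 2 were higher.

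A list of 43 other replication genes gave 42 that passed the filter. Of these, 29 were lower in both knockouts and 5 higher in both (69.0% and 11.9%, against 27.7% and 32.4% of all genes), with medians of -0.06 (log2) for KO1 and -0.27 for KO2. Past the threshold, 4 of 42 were lower in KO1, near the 9.17% of all genes, and 15 in KO2, against 13.7% of all genes. DTYMK, the kinase that follows TYMS and TK1 in the synthesis of thymidine triphosphate, was at 42.0 FPKM in the control, 34.1 in KO1 and 22.9 in KO2. DUT, which removes dUTP, was at 21.9, 18.2 and 13.5 FPKM, and RNASEH2A, a subunit of the enzyme that removes ribonucleotides from DNA, was at 57.2, 44.1 and 34.9 FPKM. Like TYMS, these 3 were lowest in KO2. CHTF18, a subunit of an alternative clamp loader, was lowest in KO1, at 18.5, 12.3 and 15.2 FPKM. Between the knockouts, DCK (deoxycytidine kinase) was the furthest apart, at 7.80 FPKM in the control, 10.9 in KO1 and 5.58 in KO2. The replication kinase CDC7 was at 10.5, 9.99 and 5.98 FPKM and the nuclease DNA2 at 5.82, 6.41 and 4.23 FPKM, both lowest in KO2.

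Of 12 E2F and pocket protein genes other than E2F1, 3 were lower in both knockouts and 3 higher in both (25.0% each, against 27.7% and 32.4% of all genes), with medians of 0.06 in KO1 and -0.07 in KO2. E2F2, an activator like E2F1, was at 4.34 FPKM in the control, 4.92 in KO1 and 2.56 in KO2, and E2F8, an atypical repressor, was at 6.23, 7.05 and 3.50 FPKM. These, like E2F1, were lowest in KO2. TFDP1, the partner of E2F proteins, was at 61.4, 60.9 and 49.1 FPKM, and RBL1, a pocket protein, was at 4.22, 3.65 and 2.83 FPKM. Between the knockouts RBL2 (another pocket protein, at 3.30, 3.92 and 2.53 FPKM) and E2F5 (at 2.11, 1.95 and 2.68 FPKM) also stood apart, E2F5 being the higher in KO2.

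Among G1 cyclins and CDK inhibitors, 14 of 15 genes passed the filter, with medians of -0.20 in KO1 and 0.02 in KO2. Past the threshold, 3 were lower and 3 higher in KO1 (9.17% and 12.1% of all genes), and 3 were lower and 4 higher in KO2 (13.7% and 13.5% of all genes). In both, 2 were higher and none lower, against 2.96% and 2.60% of all genes. They were CDKN1A and CDKN2B, which encode the inhibitors p21 and p15. CDKN1A was at 4.24 FPKM in the control, 6.68 in KO1 and 12.3 in KO2. CDKN2B was at 0.379 FPKM in the control, 0.879 in KO1 and 5.71 in KO2. Both were highest in KO2. Other inhibitors were lowest there, as CDKN2C was at 2.48, 2.89 and 0.903 FPKM and CDKN1B (p27, named after its values were seen) at 19.6, 21.1 and 15.3 FPKM. SKP2, which directs p27 to degradation, was at 12.6, 11.8 and 8.23 FPKM. CDK6, a partner of D-type cyclins, was at 2.72, 2.204 and 5.04 FPKM, and CDKN1C (p57) at 4.05, 3.13 and 7.33 FPKM, and both were higher in KO2 than in the other libraries. Whether these genes bear on the replication genes was not tested.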

How the data were processed

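RNA-Seq libraries of DLD1 control cells (n = 1) and of BEX2-/- DLD1 cells (n = 2) were analysed. The authors used the TruSeq RNA kit, which does not mark strand, and deposited FPKM values per gene. The submitters' processing notes name Trim Galore 0.3.7, STAR 2.5, Cufflinks 2.2.1, DESeq 1.22.1 and hg19, and the annotation is not given in the sources used here. Symbols, exon lengths and GRCh38 positions came from GENCODE release 29, which holds 56996 of the identifiers. No coordinates were taken from the table.

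Ratios were taken as log2(FPKM + 1), which understates changes of low genes, for genes whose control value and knockout mean averaged 1 FPKM or more. Depth was the number of reads at which FPKM times exon length became whole in genes with a single transcript (98.7% to 98.9% of values up to 20 reads, within 0.02). Reads were used only for counting intervals. The limma fit, the chromosome medians and the promoter words were chosen after seeing the data. The members, lists and the fold threshold (0.32 in log2) were chosen with earlier results of these data known. Other genes were named by size of change, 4 per list for the knockouts against the control and 4 between the knockouts, with MKI67 and PCNA as proliferation markers. All members could be named. Alternatives were another pseudocount (0.1), median-ratio and TPM scaling, other filters and folds, and each knockout alone. Scripts were tested on simulated data. Python 3.11.15, scipy 1.17.1, R 4.3.3 and limma 3.58.1 were used.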

Additional observations from a re-analysis of the deposited data

How the results depend on the processing

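Of 94 values recomputed under another setting, 73 stayed within the limits set for a move. For medians the limit was the SD of the KO1 and KO2 medians, and for counts it was 1.5 times. No median changed sign. The tally includes values that could not move, since all 39 genes had passed the filter and its removal left them unchanged. The medians of the 39 genes were below 0 under every setting run. The median of KO2 over KO1, -0.13, was -0.07 with median-ratio scaling and -0.09 with the chromosome median removed. The number of genes lower in both knockouts past 0.32 in log2, 3, was 5 with a pseudocount of 0.1 FPKM, 6 with median-ratio scaling, 1 with TPM scaling and 0 at 1.5-fold or 2-fold. With a single knockout it was between 9 (without KO2) and 19 (without KO1). In each knockout against the control, 9 and 19 genes lower became 0 and 1 at 1.5-fold and 0 and 0 at 2-fold. A single gene was higher in KO1 with a pseudocount of 0.1 FPKM or TPM scaling, and 1 in KO2 with TPM scaling. The 8 genes lower in KO2 than in KO1 became 3 with median-ratio scaling, 5 with the chromosome median removed and 0 at 1.5-fold or 2-fold, and the 1 higher became 2 with the chromosome median removed and 0 at either fold. The cause was not tested. The number of genes lower in both knockouts at any size lay between 30 (TPM scaling, against 19.8% of all genes) and 36 (median-ratio scaling, against 31.9%). TPM scaling moved the median of all genes to 0.10 in KO1 and 0.05 in KO2. The medians of the 39 genes were then -0.12 in KO1 and -0.25 in KO2. A mean of at least 5 FPKM left 37 genes. The single control library limits every comparison, and no spread among control cultures is known. No paired analysis was possible because the control has 1 library and its label does not pair it with either knockout.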

Other observations

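Genes of mitosis were low in KO2 but near the control in KO1. The difference was not tested, and 1 of them, TOP2A, is also among the other replication genes. Of 30 genes, 15 were lower in both knockouts and none higher in both, against 27.7% and 32.4% of all genes. Past 0.32 in log2, 25 were lower in KO2 (13.7% of all genes) and 1 in KO1 (9.17% of all genes). The median log2 ratio was -0.50 in KO2 and -0.004 in KO1, where the DNA replication genes had -0.32 and -0.17. BIRC5 (survivin) was at 43.2 FPKM in the control, 35.5 in KO1 and 21.7 in KO2, and CCNB2, a mitotic cyclin, was at 46.1 FPKM in the control, 44.3 in KO1 and 25.6 in KO2. KIF20A, a kinesin of cytokinesis, was at 29.5, 25.4 and 17.8 FPKM, and CKS1B at 54.3, 40.7 and 33.4 FPKM. NDC80 and CENPE, which act at kinetochores, and CDC25C, which acts at mitotic entry, were with CCNB2 the furthest apart between the knockouts, at 10.4, 13.3 and 7.15 FPKM, 4, 4.90 and 2.37 FPKM and 11.0, 11.2 and 6.22 FPKM. MKI67, the Ki-67 antigen used to stain proliferating cells, was highest in KO1, at 32.3 FPKM in the control, 38.2 in KO1 and 25.2 in KO2, in contrast to PCNA, which was highest in DLD1 control cells.

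The promoter windows of 25 mitosis genes held the CHR element in 18 (72.0%) and the E2F words in 3 (12.0%), against 3.12% and 53.1% of the DNA replication genes.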
